A study of Mus musculus with 21 samples.

Results

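The cyclin genes described here are the 10 classical cyclins of the A, B, D and E types in mouse germ cells: Ccna1, Ccna2, Ccnb1, Ccnb2, Ccnb3, Ccnd1, Ccnd2, Ccnd3, Ccne1 and Ccne2. They were found by gene symbol among the 37620 genes of the deposited expression table, and all 10 were present. The RNA came from germ cells enriched from testes of C57BL/6J males at 12 dpp (days post-partum) by collagenase and trypsin digestion. The labels call the cells spermatocytes and give no treatment or genotype other than the strain, and they hold 12 libraries under 4 sample numbers (186wt, 343wt, 444wt, 456wt), 3 to a number. The methods speak of 4 replicates, and whether the 3 libraries of a number came from the same RNA is not stated. They were averaged and counted as 1 sample, so levels are means ± SD over 4 samples. The tests between sample numbers used the spread between the libraries of a number and compare these 4 samples alone. No group of treated or mutant cells was measured, so the question that these libraries can answer for the cyclins is which of them are expressed at 12 dpp, at what level, and how their levels differ from sample to sample. Depth, estimated from the steps between low FPKM values, was 12.85 to 17.95 M (mega) fragments per library. The other 9 of the 21 samples (ChIP-seq, Affinity-seq and input) are not analysed here.

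Cyclins are the regulatory subunits of cyclin-dependent kinases (CDKs). D-type cyclins bind Cdk4 and Cdk6 and act in G1, E-type cyclins bind Cdk2 at the entry into S phase, A-type cyclins bind Cdk2 and Cdk1 in S and G2, and B-type cyclins bind Cdk1 at the entry into division. In the testis the dividing spermatogonia use this mitotic set, whereas Ccna1 and Ccnb3 are known as meiotic cyclins. Ccna1 is needed at the end of the long meiotic prophase, and Ccnb3 is known for its expression early in that prophase, in leptotene and zygotene.

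Levels are given in FPKM, the fragments of a gene scaled by its length in kilobases and by the depth of the library, which corrects for transcript length, so that levels of different genes can be set side by side. Ccnb1 had the highest level, 75.2 ± 16.03 FPKM (SD, n = 4), more than 97.2% of all genes in the table. Ccna2 followed with 44.9 ± 8.68 FPKM. The D-type cyclins came next, with 34.2 ± 7.35 FPKM for Ccnd1, 29.4 ± 3.17 FPKM for Ccnd2 and 25.9 ± 7.70 FPKM for Ccnd3. Below them were Ccne2 with 24.5 ± 3.06 FPKM and Ccnb2 with 22.1 ± 3.84 FPKM. Ccne1 had 9.84 ± 1.13 FPKM and Ccnb3 had 5.34 ± 2.65 FPKM. Ccna1 was the lowest, with 0.59 ± 0.164 FPKM. The 2 cyclins known as meiotic were therefore the 2 at the bottom of the order, and Ccna1 was below Ccnb3 in each of the 4 samples.

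Each of the 9 neighbouring pairs in this order was compared within samples, on the log2(FPKM + 0.1) scale, with an exact two-sided sign-flip permutation test over the 4 samples. Such a test cannot give a p below 0.125. In 6 pairs the higher gene was higher in 4 of 4 samples (p = 0.125 in the exact test, adjusted p = 0.188 over the 9 pairs). The largest steps among these were Ccnb3 over Ccna1, with a mean difference of 2.89 ± 0.62 (SD, n = 4), Ccnb2 over Ccne1 with 1.15 ± 0.10 and Ccne1 over Ccnb3 with 0.98 ± 0.58. Ccnb1 exceeded Ccna2 by 0.74 ± 0.06, Ccna2 exceeded Ccnd1 by 0.40 ± 0.08 and Ccne2 exceeded Ccnb2 by 0.16 ± 0.09. The middle of the order was not separated. Ccnd1 was above Ccnd2 in 3 of 4 samples (0.20 ± 0.28, p = 0.25 in the exact test), Ccnd2 was above Ccnd3 in 3 of 4 (0.22 ± 0.43, p = 0.375 in the exact test), and Ccnd3 was above Ccne2 in 2 of 4 (0.04 ± 0.29, p = 0.875 in the exact test). Without sample 456wt the difference of Ccnd3 and Ccne2 had the opposite sign (-0.0891).

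**Figure D1:**
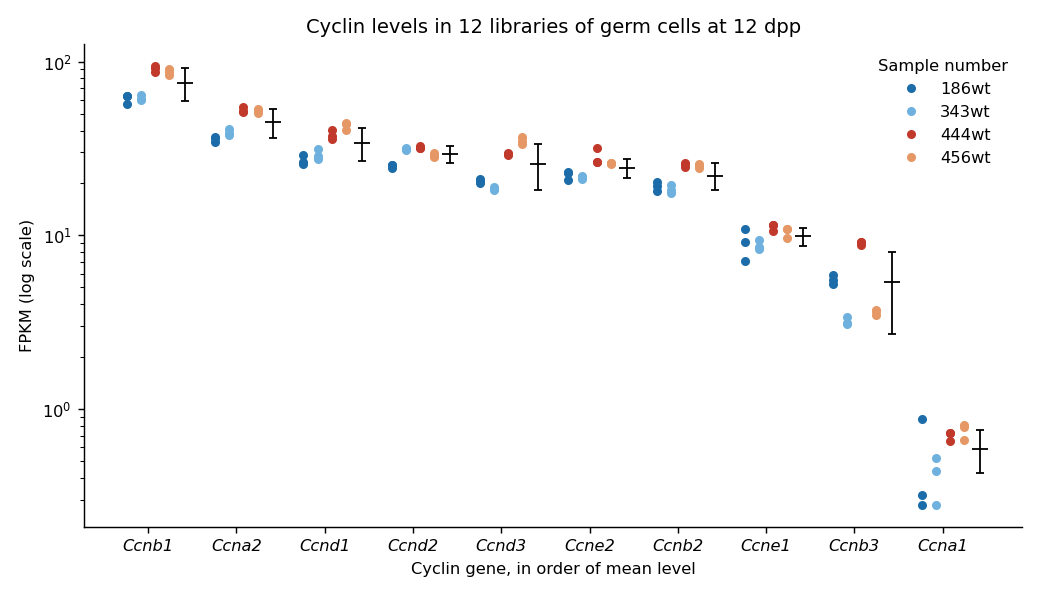
Levels of the 10 cyclin genes in FPKM on a log axis, in order of their mean. Each point is 1 library, colours mark the 4 sample numbers, and the black bar at the right of each gene is the mean ± SD over the 4 samples. Ccnb1 is at the top with 75.2 FPKM and Ccna1 at the bottom with 0.59 FPKM, and the libraries of Ccnb3 fall into separate levels by sample.

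The levels of most cyclins differed between the 4 samples by more than the libraries of a sample differed from each other. In a limma F-test on log2(FPKM + 0.1), fitted across all genes whose mean reached 0.1 FPKM, 8 of the 10 cyclins had a Benjamini-Hochberg adjusted p under 0.05. Among all 20795 genes tested the share was 58.2%, so most genes differed between these samples and the count of cyclins is to be read against that. All 10 cyclins passed the filter. The log2 range between samples (highest minus lowest) had a median of 0.57 over the 10 cyclins and of 0.55 over all genes tested. Sample 444wt was the highest for 7 of 10 cyclins and 456wt for the other 3, while among all genes tested 444wt was the highest for 36.3% and 456wt for 27.3%. The lowest sample was 343wt for 6 cyclins and 186wt for 4, and among all genes tested it was 343wt for 34.2% and 186wt for 27.8%. Tests of this kind use bulk RNA, in which fewer cells of a type and less RNA per cell cannot be told apart.

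The B-type cyclins showed how members of 1 type can differ. Ccnb1 is the main cyclin of mitotic entry, Ccnb2 is a second partner of Cdk1 in dividing cells, and Ccnb3 is the meiotic member. Ccnb1 and Ccnb2 were both high in 444wt and 456wt, while Ccnb3 was high in 444wt and low in 456wt. Bases upstream of their transcription starts are shown here, and whether they bear on these differences was not tested. The sequences are from RefSeq, and each matched its listed chromosome and strand in NCBI build 37 (mm9) exactly once. For this match, other chromosomes and the opposite strand were not searched. All were on the minus strand: chr13:101556412-101556591 for Ccnb1, chr9:70269332-70269511 for Ccnb2 and chrX:6618716-6618895 for Ccnb3. Each runs 5′ to 3′ from 150 bases before the RefSeq start to 30 bases from it, and capitals mark matches to CCAAT (the box bound by NF-Y), TTTGAA (the core of the cell cycle homology region, CHR) and its variant TTTAAA.
Ccnb1: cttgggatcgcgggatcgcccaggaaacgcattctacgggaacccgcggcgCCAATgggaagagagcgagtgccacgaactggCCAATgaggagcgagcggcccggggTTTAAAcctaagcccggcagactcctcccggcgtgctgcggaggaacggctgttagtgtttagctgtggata
Ccnb2: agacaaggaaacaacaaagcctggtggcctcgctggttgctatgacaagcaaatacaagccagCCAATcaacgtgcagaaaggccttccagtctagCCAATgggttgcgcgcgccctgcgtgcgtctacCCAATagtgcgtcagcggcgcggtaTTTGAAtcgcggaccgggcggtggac
Ccnb3: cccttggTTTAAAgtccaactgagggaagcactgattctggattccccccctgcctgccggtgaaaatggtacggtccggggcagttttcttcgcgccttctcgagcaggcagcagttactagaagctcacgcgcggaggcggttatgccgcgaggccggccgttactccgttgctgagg
All matches shown are on the strand of the gene, both strands were searched, and no matches overlapped. Counting from the start base as 0, CCAAT began at -99 and -67 in Ccnb1 and at -87, -54 and -21 in Ccnb2. TTTGAA began at 4 in Ccnb2, with another at -167 before the bases shown. TTTAAA began at -42 in Ccnb1 and at -143 in Ccnb3, with another at -185 in Ccnb3 before the bases shown. In the 300 bases of its RefSeq promoter, Ccnb3 had no CCAAT and no TTTGAA. Among 32851 promoters of that length, 37.4% held at least 1 CCAAT, 11.7% at least 2 and 3.37% at least 3, while 17.9% held TTTGAA and 13.2% held TTTAAA. These are matches of letters and not measured binding sites. Of the other cyclins, Ccna1, Ccnd3 and Ccne1 matched an entry of the promoter table, and Ccna2, Ccnd1, Ccnd2 and Ccne2 were not matched. Ccna1 had 1 CCAAT, on the opposite strand at -107, Ccne1 had TTTAAA at -15, and of the 2 promoters listed for Ccnd3 one had CCAAT at -108.

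Ccnb1 (chr13:101548605-101556525, minus strand) had 56.7, 63.2 and 63.0 FPKM in the libraries of 186wt and 60.4, 61.0 and 64.3 in those of 343wt. It had 87.1, 91.8 and 94.3 FPKM in 444wt and 90.9, 86.7 and 83.5 in 456wt. The 6 libraries of 444wt and 456wt were thus all above the 6 others, with no overlap. Here and for the other cyclins, the split into higher and lower samples was taken from the values of the gene itself. The share of all genes with such a split was not counted, so it is a description and not a test. The highest sample exceeded the lowest by 0.58 ± 0.05 on the log2 scale (SE of a pairwise difference, the error given with every such range that follows, limma adjusted p = 8.5e-07). Reads of Ccnb1 can be shared with pseudogenes. Of the 50-base words of its transcripts, 24.1% also occur in other genes, mainly Gm5593 (mean 0.0933 FPKM) and Gm12856 (mean 0.0425 FPKM). Their summed level is small beside that of Ccnb1, but how the counting divided shared reads can change the level of each.

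Ccnb2 (chr9:70255496-70269361, minus strand) had a lower level and was likewise higher in 444wt and 456wt, with 343wt as its lowest sample where Ccnb1 was lowest in 186wt. Its libraries had 20.1, 18.02 and 19.1 FPKM in 186wt, 17.5, 19.4 and 18.3 in 343wt, 24.7, 26.1 and 25.8 in 444wt, and 25.8, 24.4 and 25.5 in 456wt. Again 444wt and 456wt lay above the others without overlap. The highest sample exceeded the lowest by 0.47 ± 0.05 on the log2 scale (limma adjusted p = 6.1e-06). None of its 50-base words occurs in another gene.

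Ccnb3 (chrX:6556778-6618745, minus strand) had another order of samples. The libraries had 5.53, 5.25 and 5.88 FPKM in 186wt, 3.09, 3.12 and 3.38 in 343wt, 9.12, 9.13 and 8.79 in 444wt, and 3.73, 3.46 and 3.64 in 456wt. Sample 444wt was the highest and 186wt the next, while 456wt, which was high for Ccnb1 and Ccnb2, was close to 343wt at the bottom. Split by the order of Ccnb3 itself, the libraries of 186wt and 444wt did not overlap with those of 343wt and 456wt. The highest sample exceeded the lowest by 1.47 ± 0.07 on the log2 scale (limma adjusted p = 1.8e-08), or 2.82-fold between the mean FPKM, a wider range than that of 90.7% of the genes tested and the widest of the 10 cyclins. The spread within each sample was small although the level was low, with 227 to 628 estimated fragments of Ccnb3 per library.

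As a result the make-up of the B type changed from sample to sample. Ccnb3 made up 6.49% of the summed FPKM of the 3 B-type genes in 186wt, 3.83% in 343wt, 7.17% in 444wt and 3.12% in 456wt. Ccnb1 held 73.2 ± 1.73% (SD, n = 4) and Ccnb2 21.6 ± 0.873%. The highest and the lowest share differed 2.30-fold for Ccnb3 and 1.05-fold for Ccnb1.

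The A type was nearly all Ccna2. Ccna2 (chr3:36463788-36471072, minus strand), the A-type cyclin of mitotic cells, had 34.4, 36.8 and 36.1 FPKM in 186wt, 40.9, 38.8 and 37.8 in 343wt, 51.3, 51.9 and 54.4 in 444wt, and 52.2, 53.6 and 50.4 in 456wt. As for Ccnb1 and Ccnb2, the libraries of 444wt and 456wt were all above the others. The highest sample exceeded the lowest by 0.55 ± 0.04 on the log2 scale (limma adjusted p = 2.8e-07). In its annotation 512 of 3510 exonic bases lie opposite to exons of Exosc9 (mean 22.9 FPKM). The sources used here do not state a strand setting, and reads of 2 such genes cannot be told apart without one.

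Ccna1 (chr3:54849391-54858977, minus strand), the meiotic A-type cyclin, made up 1.29 ± 0.167% of the A-type FPKM (SD, n = 4). Its libraries had 0.32, 0.28 and 0.87 FPKM in 186wt, 0.52, 0.28 and 0.44 in 343wt, 0.73, 0.73 and 0.65 in 444wt, and 0.66, 0.81 and 0.79 in 456wt. The third library of 186wt was the highest of all 12, and the samples overlapped. The difference of 0.76 ± 0.33 on the log2 scale did not pass the threshold (limma adjusted p = 0.135). These values correspond to 6.03 to 17.8 estimated fragments per library, so that counting error alone is large. In the first library of 186wt, 3 fragments would give 0.136 FPKM. The call depends on single libraries of 186wt. Without the third library of 186wt the adjusted p was 0.0063, and without the whole sample it was 0.0295, in a range of 0.0063 to 0.512 over the alternatives tried.

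**Figure D2:**
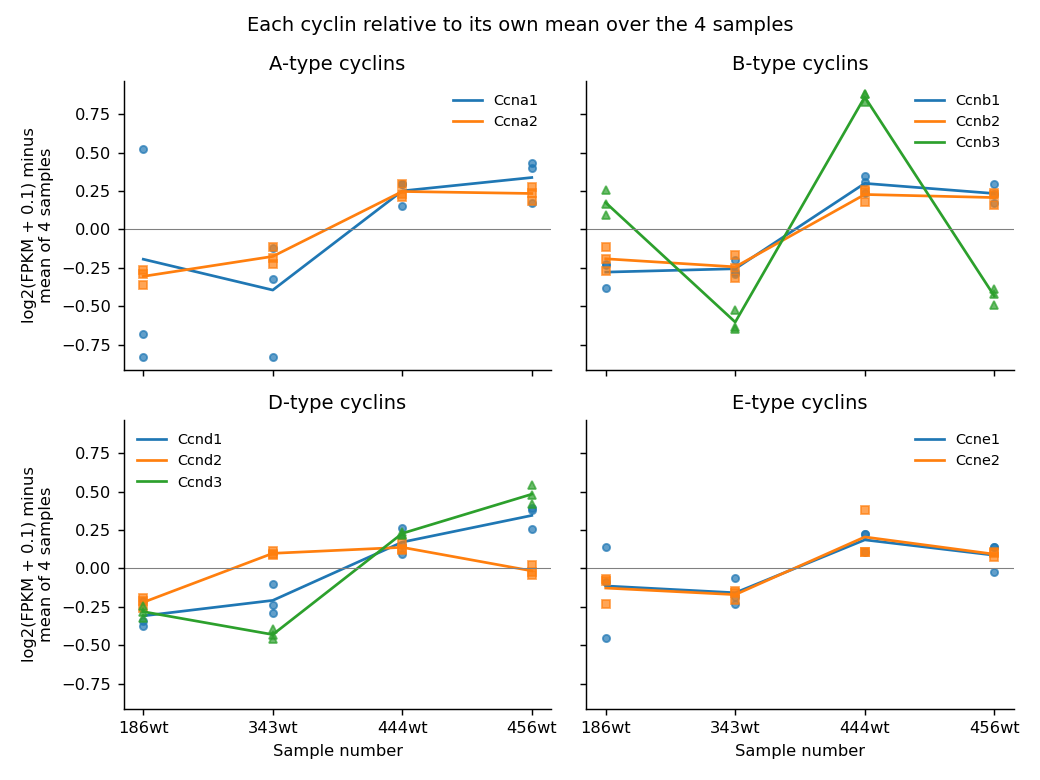
Profile of each cyclin over the 4 sample numbers, as log2(FPKM + 0.1) minus the mean of the gene over the 4 samples, in 1 panel for each type. Points are libraries and lines join the values of the sample means. Ccnb3 spans 1.47 from 343wt to 444wt and falls again in 456wt, the libraries of Ccna1 in 186wt are spread widely, and the lines of Ccne1 and Ccne2 lie on each other.

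The D-type cyclins, which pair with Cdk4 and Cdk6 in G1, were expressed at similar levels but did not move alike. Ccnd3 (chr17:47642000-47736632, plus strand) had 20.02, 20.5 and 21.1 FPKM in 186wt, 19.0, 18.5 and 18.1 in 343wt, 29.1, 29.6 and 29.3 in 444wt, and 36.6, 34.9 and 33.6 in 456wt. All 4 samples were separate from each other, with 456wt at the top. Its highest sample exceeded its lowest by 0.91 ± 0.04 on the log2 scale (limma adjusted p = 4.8e-09), the second widest of the cyclins. Exons of Bysl lie opposite to 353 of its 2255 exonic bases, and 6.49% of its 50-base words occur in the pseudogene Ccnd3-ps (mean 0.0233 FPKM).

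Ccnd1 (chr7:152115836-152125774, minus strand) had 26.4, 25.9 and 28.9 FPKM in 186wt, 27.4, 28.5 and 31.3 in 343wt, 37.3, 40.3 and 35.8 in 444wt, and 40.1, 44.2 and 43.7 in 456wt. Samples 444wt and 456wt were above the other 2 without overlap, and overlapped with each other. The highest sample exceeded the lowest by 0.65 ± 0.06 on the log2 scale (limma adjusted p = 9.5e-06). Exons of Oraov1 (mean 14.1 FPKM) lie opposite to 818 of its 3835 exonic bases.

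Ccnd2 (chr6:127075797-127101066, minus strand) did not share this order. Its libraries had 25.3, 25.5 and 24.4 FPKM in 186wt, 31.2, 31.1 and 31.6 in 343wt, 32.8, 31.9 and 31.8 in 444wt, and 28.3, 29.7 and 28.7 in 456wt. Here 343wt and 444wt were high, 456wt was intermediate and 186wt was low. The log2 range of 0.36 ± 0.03 was among the smaller ones and passed the threshold (limma adjusted p = 2.5e-06).

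The make-up of the D type varied accordingly. Ccnd2 held 34.5% of the summed D-type FPKM in 186wt, 39.7% in 343wt, 32.4% in 444wt and 27.1% in 456wt. Ccnd3 held 28.3%, 23.5%, 29.5% and 32.9% in the same order. Ccnd1 was the steadiest, with 38.0 ± 1.42% (SD, n = 4). The leading D-type cyclin was therefore Ccnd2 in 343wt and Ccnd1 in the other 3 samples.

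In the sample means the E-type cyclins, partners of Cdk2, kept nearly the same proportion. Ccne2 (chr4:11118498-11131926, plus strand) had 20.6, 23.2 and 22.9 FPKM in 186wt, 21.8, 22.0 and 21.1 in 343wt, 26.2, 31.7 and 26.2 in 444wt, and 25.6, 26.2 and 26.1 in 456wt. The libraries of 444wt and 456wt were above the others without overlap, by a margin smaller than for Ccnb1 or Ccna2. The highest sample exceeded the lowest by 0.37 ± 0.07 on the log2 scale (limma adjusted p = 0.0014). When the libraries were rescaled to equal levels of the spermatogonia marker list, an alternative chosen after seeing the data, its adjusted p was 0.101, in a range of 0.000517 to 0.101 over the alternatives tried. Exons of Ints8 (mean 32.7 FPKM) lie opposite to 609 of the 3495 exonic bases of Ccne2.

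Ccne1 (chr7:38883003-38892553, minus strand) had 10.8, 7.14 and 9.19 FPKM in 186wt, 8.34, 8.58 and 9.38 in 343wt, 10.6, 11.4 and 11.5 in 444wt, and 9.62, 10.8 and 10.8 in 456wt. The libraries of 186wt spanned most of the range, and the samples overlapped. The difference of 0.35 ± 0.12 on the log2 scale did not pass the threshold (limma adjusted p = 0.0657). It passed without the first library of 186wt (adjusted p = 0.0081), without the second (0.0158), without the whole sample (0.0049) and with a filter at a mean of 1 FPKM (0.0483), and the alternatives tried ranged from 0.0049 to 0.505. Ccne1 made up 28.7 ± 0.208% and Ccne2 71.3 ± 0.208% of the E-type FPKM (SD, n = 4). In the sample means these were the steadiest shares within any type that had more than 1 gene above 1 FPKM. Single libraries varied more, as in 186wt, where Ccne1 had 10.8 and 7.14 FPKM in the first and second library. Ccne2 had 20.6 and 23.2 FPKM in the same libraries.

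**Figure D3:**
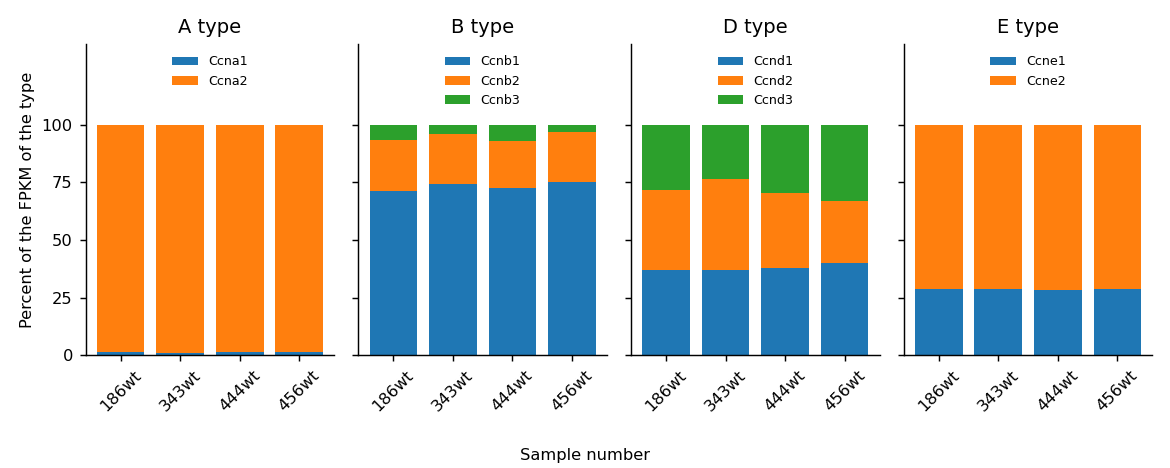
Share of each cyclin in the summed FPKM of its type, in percent, stacked for each of the 4 sample numbers. Ccna2 holds nearly all of the A type, Ccnb3 varies between 3.12% and 7.17% of the B type, Ccnd2 between 27.1% and 39.7% of the D type, and Ccne1 stays near 28.7% of the E type.

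Profiles of the cyclins were compared with each other by the root mean square difference of the centred log2(FPKM + 0.1) values over the 4 samples, in which 0 means the same profile. Ccne1 and Ccne2 were the closest pair (0.0135), followed by Ccna2 and Ccnb1 (0.05005) and by Ccnb1 and Ccnb2 (0.0583). Ccnb3 was at least 0.497 from each of the other 9 cyclins. Apart from pairs with Ccnb3, the most distant pair was Ccnd2 and Ccnd3 (0.368). These are descriptions over 4 samples, with no test. The distance of Ccne1 and Ccne2 is small beside the SE of a pairwise difference between samples for Ccne1, 0.12.

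The genes most like each cyclin were sought among 4113 genes that averaged 10 FPKM or more. Their log2 range between samples was above 0.329, the median of genes at that level. The nearest to Ccnb1 was Aurkb (0.0081), the Aurora kinase that acts on chromosome attachment in division, with 23.1, 23.1, 34.2 and 32.5 FPKM in 186wt, 343wt, 444wt and 456wt, followed by Cpne1 (0.0130). The nearest to Ccnb2 were Fen1 (0.0092), the flap endonuclease of DNA replication and repair, and Chn1 (0.0113). Next to Ccna2 were Ski (0.0096), a transcriptional co-regulator, and Cdca3 (0.0136), a gene associated with cell division.

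For Ccnb3 the nearest were the pseudogene Gm11331 (0.116) and Dmc1 (0.156), which encodes the meiotic strand-exchange protein. Dmc1 had 21.3 FPKM in 186wt, 14.6 in 343wt, 29.9 in 444wt and 14.7 in 456wt, the same order of sample means as Ccnb3. The Dmc1 libraries of 343wt and 456wt overlapped, so the order of these samples was not resolved for Dmc1. Both distances are large beside those of the nearest genes of the other cyclins, which were at most 0.0261. Ccnb3 itself had a wider range than Dmc1.

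Among the other members, Ccnd1 was nearest to Lamb1 (0.0258), a laminin chain, and Ptp4a3 (0.0261), and Ccnd2 to Hmox1 (0.0101), a heme oxygenase, and Scamp5 (0.0127). Ccnd3 was nearest to Zfp640 (0.0206) and Arhgap10 (0.0238). Ccne1 was nearest to Zbed4 (0.0037) and Parg (0.0060), and Ccne2 to Ipo4 (0.0062), an importin, and Lsm4 (0.0072). For Ccna1 the nearest were Pdlim7 (0.0221) and Nme3 (0.0229), a comparison that rests on its few fragments.

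Of the kinases that the cyclins bind, Cdk1, Cdk2 and Cdk4 had smaller log2 ranges between samples than any of the 10 cyclins, and Cdk6 did not. Cdk1, the partner of the B-type cyclins, had 37.6 FPKM in 186wt, 39.0 in 343wt, 39.1 in 444wt and 41.5 in 456wt, and did not pass the test (difference 0.14 ± 0.08 on the log2 scale, limma adjusted p = 0.457). Per FPKM of Cdk1 there were 1.62 FPKM of Ccnb1 in 186wt, 1.59 in 343wt, 2.33 in 444wt and 2.09 in 456wt. Cdk4, the partner of the D-type cyclins, was the highest of the kinases (144.7 ± 5.81 FPKM, SD, n = 4), and its difference of 0.13 ± 0.03 on the log2 scale passed (limma adjusted p = 0.0084). Each D-type cyclin was at 0.126 to 0.286 of the FPKM of Cdk4. Cdk2 had 63.2 ± 2.99 FPKM and was lowest in 456wt (difference 0.16 ± 0.02 on the log2 scale, limma adjusted p = 0.00046). Cdk6, the other partner of the D type, was the lowest of the 4 with 7.35 ± 1.33 FPKM, and was higher in 444wt and 456wt (difference 0.53 ± 0.06 on the log2 scale, limma adjusted p = 1.9e-05). In all, 3 of these 4 kinases passed the test, against 58.2% of all genes tested.

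**Figure D4:**
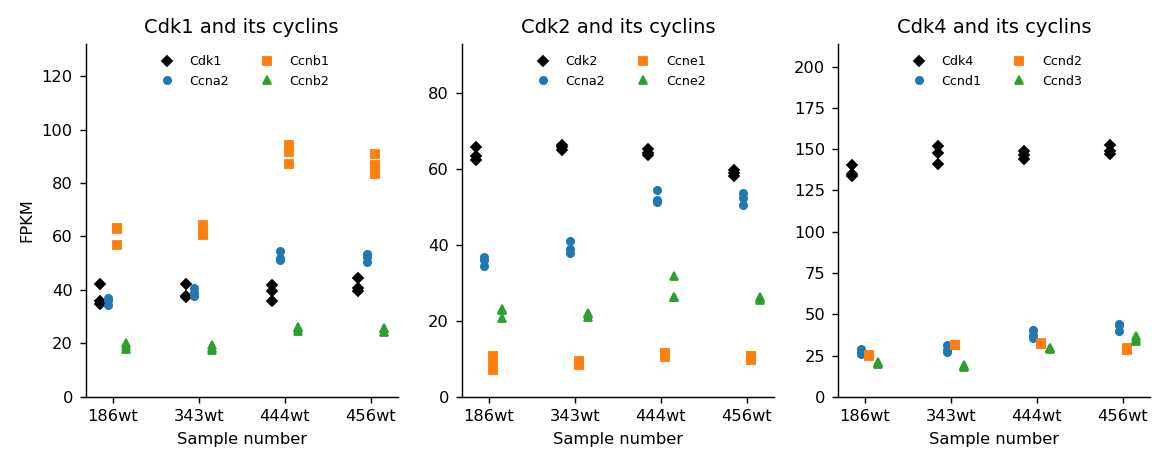
FPKM of Cdk1, Cdk2 and Cdk4 (black diamonds) with the cyclins that bind them, in every library of the 4 sample numbers. Axes start at 0. Cdk1 stays near 39.3 FPKM while Ccnb1 lies between 83.5 and 94.3 FPKM in 444wt and 456wt and between 56.7 and 64.3 FPKM in the other samples.

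The other genes of the pathway were taken from 7 lists, which held 67 genes. Of these, 66 were tested and 56 differed between the samples, against 58.2% of all genes tested, with a median log2 range of 0.41. All 7 CDK inhibitors passed, and they did not move together. Cdkn2a had 32.7 FPKM in 186wt, 34.7 in 343wt, 47.8 in 444wt and 46.9 in 456wt (difference 0.55 ± 0.05 on the log2 scale, limma adjusted p = 1.6e-06), the order seen for Ccna2. Cdkn2d went the other way, with 22.7, 23.3, 16.8 and 17.7 FPKM (0.46 ± 0.04, limma adjusted p = 5.8e-07), and Cdkn1b was lowest in 444wt, with 19.8, 17.0, 14.0 and 16.6 FPKM (0.49 ± 0.05, limma adjusted p = 4.3e-05).

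Of the regulators and binding partners of CDKs, a list that holds the inhibitory kinases Wee1 and Pkmyt1 beside activators, 9 of 11 passed, against 58.2% of all genes tested. Sample 444wt was the highest for 7 of the 11, against 36.3% of all genes tested. Cks2 (57.7 ± 7.28 FPKM, SD, n = 4) and Cks1b (43.9 ± 6.21 FPKM), small proteins that bind CDKs, and Ccnh (30.4 ± 2.81 FPKM), the cyclin of the CDK-activating kinase, were the highest. Cdc25c, a phosphatase that activates Cdk1, had 6.31, 7.02, 9.40 and 8.38 FPKM in 186wt, 343wt, 444wt and 456wt (difference 0.57 ± 0.05 on the log2 scale, limma adjusted p = 9.7e-06). Spdya, which activates Cdk2 without a cyclin and acts at meiotic telomeres, had 5.88, 3.47, 7.86 and 4.23 FPKM (1.16 ± 0.09, limma adjusted p = 2.7e-06). This is the order of samples of Ccnb3, and also that of Ccnl2, Mki67, Prdm9 and Hormad1. The share of all genes with this order was not counted. Of all genes on the pathway and marker lists, Spdya had the profile nearest to Ccnb3 (0.154).

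Of the RB and E2F proteins, which control the genes of S phase, 11 of 13 passed, against 58.2% of all genes tested. E2f1 had 18.4, 18.8, 27.9 and 24.997 FPKM in 186wt, 343wt, 444wt and 456wt (difference 0.59 ± 0.03 on the log2 scale, limma adjusted p = 1.1e-08). The highest levels were those of Tfdp1 (79.6 ± 9.38 FPKM, SD, n = 4), Tfdp2 (28.8 ± 1.57 FPKM) and E2f6 (26.3 ± 3.98 FPKM). Of the regulators of cyclin degradation, a list that holds its inhibitors Fbxo5 and Fbxo43, 6 of 8 passed and 7 of 8 were highest in 444wt. The shares of all genes tested were 58.2% and 36.3%. Cdc20, the activator of the anaphase-promoting complex, had 53.8, 51.2, 69.8 and 65.0 FPKM (0.45 ± 0.03, limma adjusted p = 3.0e-07), and Fzr1, the other activator, 46.3 ± 4.23 FPKM.

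Of 17 other cyclins tested, 14 passed, against 58.2% of all genes tested, and Cntd2 was not found in the table. Ccni (98.98 ± 5.16 FPKM, SD, n = 4) was above Ccnb1 on average, and Ccnl2 (60.6 ± 6.69 FPKM) and Ccnl1 (38.9 ± 3.80 FPKM), cyclins linked to RNA splicing, were next. Ccnf, which is both a cyclin and an F-box protein, followed the mitotic cyclins with 20.4, 21.6, 31.2 and 29.0 FPKM in 186wt, 343wt, 444wt and 456wt (difference 0.61 ± 0.03 on the log2 scale, limma adjusted p = 3.9e-08). Ccnl2 had 62.8, 52.4, 68.3 and 59.0 FPKM (0.38 ± 0.02, limma adjusted p = 2.6e-07). All 8 proliferation genes passed and all 8 were highest in 444wt, against 58.2% and 36.3% of all genes tested. Top2a, the topoisomerase of dividing cells, had 90.3, 88.8, 132.5 and 109.4 FPKM, and Mki67 had 34.0, 25.5, 38.9 and 31.5 FPKM, while Pcna had 105.8 ± 15.5 FPKM and Cenpa 50.3 ± 8.74 FPKM (SD, n = 4).

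The cell types in the libraries also differed between the samples. Sertoli cell markers (11 of 12 found) summed to 4508 FPKM in 186wt, 4686 in 343wt, 2640 in 444wt and 2804 in 456wt, led by Clu (1844 ± 574 FPKM, SD, n = 4), with Sox9 at 44.4 ± 11.7 FPKM and Amh at 70.1 ± 21.6 FPKM, so the label spermatocytes does not cover all cells in the libraries. Spermatogonia markers (11 of 11) summed to 702, 744, 1017 and 889 FPKM, with Kit at 45.2 ± 9.38 FPKM and Stra8 at 103 ± 29.3 FPKM. The highest on that list were Uchl1 (mean 371 FPKM) and Dmrt1 (mean 144 FPKM), which weigh most in its sum. Early meiotic markers (12 of 13) summed to 429, 330, 545 and 389 FPKM, with Sycp3 at 73.1 ± 18.1 FPKM. The samples with high Ccna2, Ccnb1 and Ccnb2 were thus those with high spermatogonia markers and low Sertoli markers. Of the early meiotic list, 11 of 12 genes were highest in 444wt and 11 of 12 lowest in 343wt. Ccnb3 had these extremes too, and so had Ccnb2, Ccne1 and Ccne2. Among all genes tested 36.3% were highest in 444wt and 34.2% lowest in 343wt.

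Markers of late pachytene and round spermatids summed to 44.1 to 68.9 FPKM over the samples. They were led by Hspa2 (36.8 ± 7.04 FPKM, SD, n = 4), followed by Ldhc (7.18 ± 4.83 FPKM) and Piwil1 (6.50 ± 2.34 FPKM). Prm2 was at 0 in all and Prm1 at no more than 0.44 FPKM in any sample. Peritubular myoid markers summed to 553, 261, 695 and 1161 FPKM (Acta2 at 473 ± 262 FPKM, SD, n = 4), with the lowest and the highest sum in the same samples as for Ccnd3. Leydig markers summed to 57.9 to 172.2 FPKM (Cyp11a1 at 9.05 ± 4.76 FPKM), endothelial markers to 17.0 to 39.1 FPKM and macrophage markers to 7.64 to 33.3 FPKM. The part of cell type make-up in the differences of the cyclins was not tested.

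The range of Ccna2, Ccnb1, Ccnb2, Ccnd1 and Ccne1 was narrower against the spermatogonia list and wider against the early meiotic list. For Ccnd1 it was 1.29-fold and 1.74-fold, compared with 1.58-fold in FPKM. This did not hold for every cyclin. Ccnd2 had a wider range against the spermatogonia list (1.33-fold) than in FPKM (1.28-fold). Per 100 FPKM of the spermatogonia list, Ccnb1 had 8.69 FPKM in 186wt, 8.32 in 343wt, 8.96 in 444wt and 9.78 in 456wt, a 1.18-fold range compared with 1.49-fold in FPKM. Per 100 FPKM of the early meiotic list the range was 1.57-fold for Ccnb1, 1.60-fold for Ccna2 (1.47-fold in FPKM) and 1.46-fold for Ccnb2 (1.39-fold in FPKM). The range of Ccnb3 against the early meiotic list was 1.79-fold, compared with 2.82-fold in FPKM. Against the spermatogonia list it was 2.18-fold. Ccnd3 kept a 1.58-fold range against the spermatogonia list, compared with 1.89-fold in FPKM. The proliferation list narrowed the ranges as well, to 1.13-fold for Ccnb1, 1.15-fold for Ccna2 and 1.10-fold for Ccnb2. Against it Ccnd2 again had a wider range (1.35-fold) than in FPKM.

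**Figure D5:**
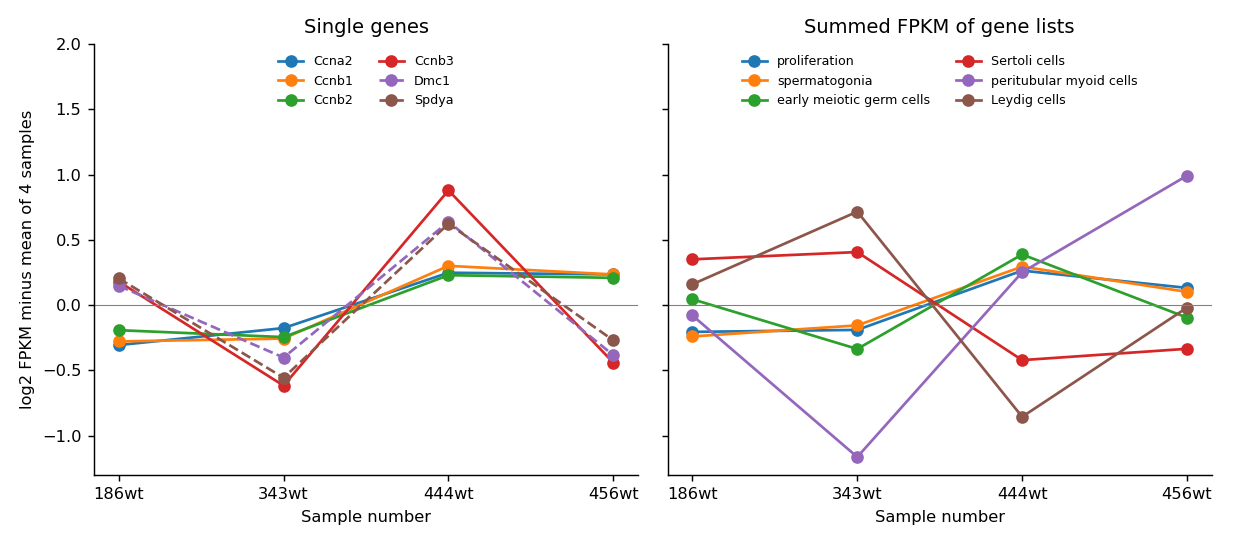
Left, log2 FPKM of single genes minus their mean over the 4 samples, with the cyclins as solid lines and Dmc1 and Spdya as dashed lines. Right, the same for the summed FPKM of marker and proliferation lists. Ccnb3, Dmc1 and Spdya share an order of sample means with 444wt highest and 343wt lowest, though 343wt and 456wt overlap for Dmc1. Genes not drawn, such as Ccnl2 and Mki67, have this order too. Ccna2, Ccnb1 and Ccnb2 are high in 444wt and 456wt, where the Sertoli list is at 2640 and 2804 FPKM.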

How the data were processed

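RNA was measured in 12 libraries of germ cells, 3 for each of 4 sample numbers. The authors computed the deposited FPKM with RSEM 1.2.8 from 100-bp paired-end reads, which Bowtie 0.12.9 had placed on the build 37 transcriptome (mm9, per the submitters' processing notes and methods), after removing reads with 2 or more mismatches, and rounded them to 2 decimals. A strand setting is not given in the sources used here. FPKM carry no counts, so depth was estimated from the steps of low values. RSEM divides reads that fit several transcripts, and levels of genes with near-identical copies are less certain.

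The cyclins, gene lists and comparisons were chosen with earlier results of these data known. Genes averaging at least 0.1 FPKM were tested with an F-test in limma 3.58.1 under R 4.3.3 (moderated variances with a trend) on log2(FPKM + 0.1), with Benjamini-Hochberg adjustment over all of them and a threshold of 0.05. A fold change on this scale understates the change of low genes. On simulated data with 20795 genes, 200 were shifted in 1 sample number. The F-test between 4 sample numbers recovered 48% of genes shifted by 0.5 and 64% of those shifted by 1 on the log2 scale. Of its calls, 7.69% and 7.25% were of genes not shifted. In the real data 58.2% of genes were called, so these rates need not hold there. From each pathway list the text names the 3 genes with the highest mean and the 2 with the smallest p, and for each cyclin the 2 genes of most similar profile. Spdya was singled out as nearest to Ccnb3 on the lists after its values were seen. Python 3.11.15 (numpy 2.4.6, pandas 2.3.3, scipy 1.17.1) gave the other values, and matplotlib 3.10.9 the plots. Gene positions and exons are from GENCODE M1 on NCBI build 37, and promoters were matched by symbol to a RefSeq table for 6 of 10 cyclins. The alternatives tried were other pseudocounts, filters and scalings, a block for the library number, and leaving out each library or sample.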

Additional observations from a re-analysis of the deposited data

How the results depend on the processing

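The number of cyclins that differed between the samples was 8 in the fit reported and 7 to 10 under the alternatives, and that of pathway genes was 56 and 48 to 58. Leaving out 1 library at a time gave 8 to 9 cyclins, 53 to 56 pathway genes and 11433 to 11780 of all genes, and leaving out 444wt gave the fewest, 9848 genes. The count of 10 cyclins came without 186wt. The count of 7 came from rescaling to the spermatogonia list, which was chosen after seeing the data, and in which Ccne2 did not pass (adjusted p = 0.101, limma). Of 239 single tests of cyclins under alternatives, 232 stayed on the same side of the threshold, 6 moved past it (Ccna1 and Ccne1, each with a library or the sample 186wt left out or a stricter filter) and 1 moved below it. The cause was not tested. The difference of Ccnd3 and Ccne2 was 0.04 over the 4 samples, -0.0891 without 456wt, and ranged from -0.0891 to 0.128 over 6 alternatives. With a pseudocount of 1, Ccnb3 exceeded Ccna1 by 1.91 in place of 2.89 on the log2 scale.

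Library numbers did not pair the samples. Of 18 correlations between same-numbered libraries of different samples, 1 was over 0.1 (range -0.0648 to 0.128). With a replicate block for the library number, 8 cyclins, 56 pathway genes and 11774 of all genes passed. Depth limits Ccna1, which had at most 17.8 estimated fragments in any library.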
